A study of Mus musculus with 8 samples.

Results

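Oligodendrocyte precursor cells were followed in these libraries by 9 marker genes, *Pdgfra*, *Cspg4*, *Olig1*, *Olig2*, *Sox10*, *Gpr17*, *Nkx2-2*, *Ptprz1* and *Lhfpl3*. They were chosen by name among the 48709 genes listed, as markers of a lineage outside Nex-Cre activity whose levels were already known to be higher in the mutant of this same comparison. All 9 had counts in every library and passed the filter on low counts that kept 16287 genes. Because the choice used the difference between the groups, that difference is described for the 9 genes and no test of it is offered as evidence.

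Oligodendrocyte precursors arise in waves, first from the ventral and then from the dorsal forebrain, and spread through the newborn cortex while they divide. PDGF-A, released by neurons and astrocytes, keeps them dividing through its receptor, while the factors OLIG1, OLIG2 and SOX10 hold the lineage identity. Myelin genes are switched on only later, when precursors leave the cell cycle.

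The study asked what the loss of the BAF chromatin remodeling complex does to neurons of the developing mouse cortex, and RNA from whole cortex at postnatal day 1 (P1) was sequenced for 4 control and 4 mutant samples. The mutant, dcKO_Nex-Cre, is a double conditional knockout of *Smarcc1* (BAF155) and *Smarcc2* (BAF170) driven by Nex-Cre, a Cre that acts in postmitotic projection neurons and their late precursors. Controls were Cre-negative and heterozygous for the floxed alleles (BAF155fl/+, BAF170fl/+), so that every sample carried floxed alleles and the Cre allele was present in the mutant alone. Cells that never expressed Nex-Cre, glia of the oligodendrocyte lineage among them, keep both genes in this model. The mice were kept on a C57BL6/J background. The labels do not say whether the libraries of a group came from separate animals, so a p-value here measures the spread between these samples.

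Each library held between 17958641 and 35191912 counts, and the 9 genes took 0.074% to 0.12% of them. Levels are given as CPM, counts scaled to a common, TMM-normalized library size, and fold changes on the log2 scale as mutant minus control, from edgeR. *Smarcc2* fell from 462 ± 25.8 to 263 ± 26.0 CPM (SD, n = 4 per group), a log2 fold change of -0.81 (adjusted p = 0.00267, edgeR's quasi-likelihood test). *Smarcc1* fell from 148 ± 11.6 to 102 ± 13.7 CPM (SD, n = 4 per group), a log2 fold change of -0.53 (adjusted p = 0.0348, edgeR), a call kept in 2 of 8 fits with 1 library omitted, those without dcKO_Nex-Cre replicate 2 or 4. Control replicate 2 and dcKO_Nex-Cre replicate 4 stood apart, with 6.87% and 6.15% of counts on mitochondrial genes against 2.33% to 4.24% in the other libraries. By the lane tags in the file names, all controls and mutant replicates 1 and 2 were run in lane 2 and mutant replicates 3 and 4 in lane 8, so that lane 8 and genotype cannot be told apart. Results are therefore also given without the pair of libraries with the highest mitochondrial share, and within lane tag 2.

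Most of the 9 genes were higher in the dcKO_Nex-Cre cortex, led by the surface proteins *Cspg4* and *Pdgfra* and by *Sox10*, whereas the means of *Ptprz1* were nearly equal and *Nkx2-2* had few counts. A log2 fold change above 0 was found for 8 of the 9 genes, against 50.9% of all genes tested, and their median was 0.25 against 0.0043 over all genes. Markers of some other cell types had medians of similar size, 0.27 for striatal neurons, 0.22 for dividing cells and 0.21 for meningeal fibroblasts. Others had medians below 0, such as -0.02 for mural cells and -0.47 for diencephalic neurons. One gene, *Cspg4*, passed an adjusted p of 0.05 in edgeR's quasi-likelihood test, while 0.884% of all genes tested were called, 0.375% higher and 0.510% lower. DESeq2's Wald test also called *Cspg4* alone of the 9, a test that called 3.03% of all genes, 1.32% higher and 1.71% lower. Nothing is read from these counts, since the genes were chosen on this contrast. In whole tissue, a different number of cells of a type and a different amount of RNA per cell cannot be told apart.

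**Figure D1:**
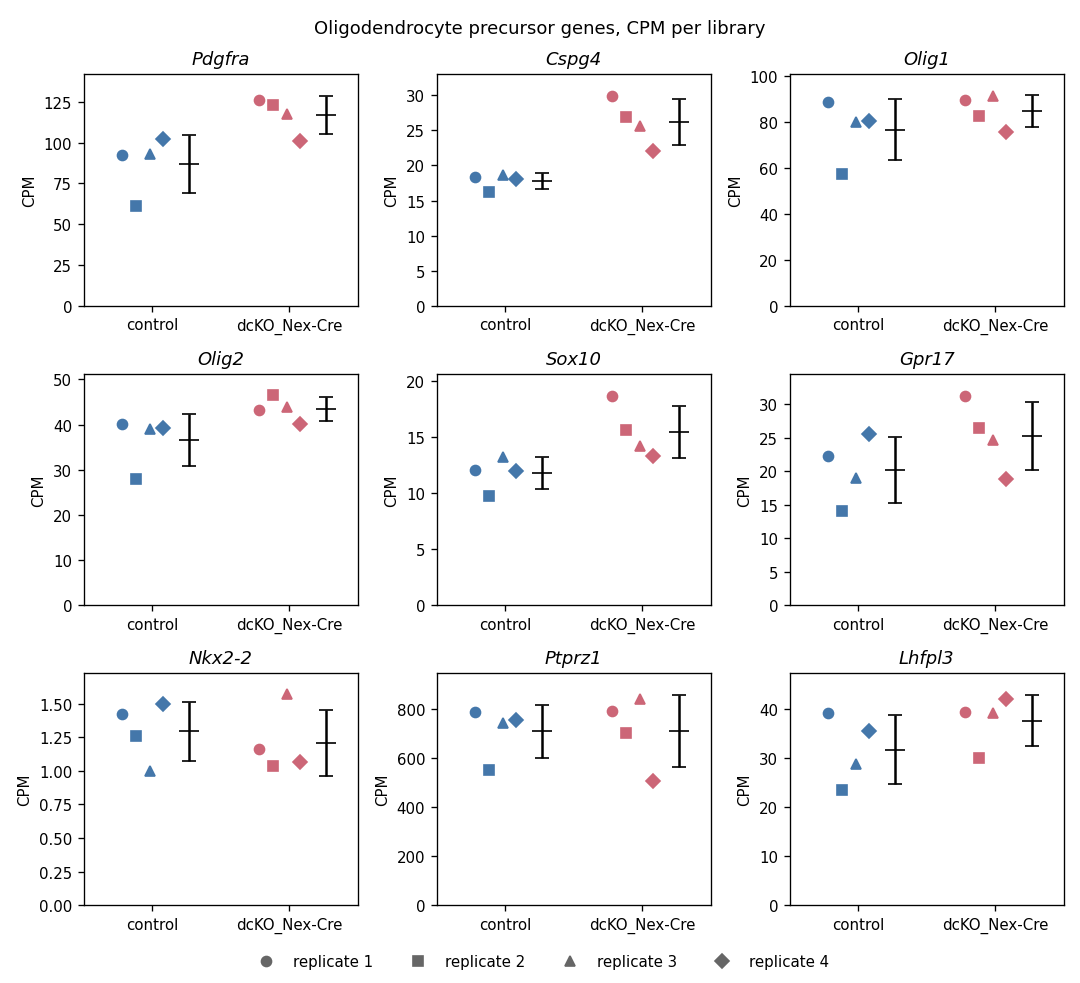
CPM of each of the 9 precursor genes (y axis, starting at 0) in the 4 control and 4 dcKO_Nex-Cre libraries, where the symbol gives the replicate number and the bars give the mean and SD. The groups do not overlap for *Cspg4* and *Sox10*, and control replicate 2 is the lowest control for every gene except *Nkx2-2*.

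Of the receptors and surface proteins, *Pdgfra* encodes the receptor for PDGF-A, through which precursors are kept in division. *Pdgfra* (ENSMUSG00000029231, chromosome 5 of GRCm38, 75152292 to 75198215, plus strand) was at 92.4, 61.3, 92.8 and 102.1 CPM in control replicates 1 to 4 and at 126.3, 123.1, 117.3 and 100.7 CPM in dcKO_Nex-Cre replicates 1 to 4. Mutant replicates 1 to 3 lay above every control, and replicate 4 lay just under control replicate 4, so that the groups overlapped. The mean was 87.1 ± 17.8 CPM in the control and 117 ± 11.4 CPM in the mutant (SD, n = 4 per group), or 134% of the control, a log2 fold change of 0.42 with a standard error (SE) of 0.14. It stayed between 0.30 and 0.51 with single libraries omitted, the low end being without control replicate 2.

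*Cspg4* encodes NG2, the proteoglycan by which precursors are commonly stained. *Cspg4* (ENSMUSG00000032911, chromosome 9, 56865033 to 56899870, plus strand) was at 18.3, 16.2, 18.7 and 18.1 CPM in the control libraries and at 29.9, 26.9, 25.7 and 22.1 CPM in the dcKO_Nex-Cre libraries. Every mutant library lay above every control library, with dcKO_Nex-Cre replicate 4 nearest to the controls. The mean went from 17.8 ± 1.11 to 26.2 ± 3.24 CPM (SD, n = 4 per group), or 147% of the control, a log2 fold change of 0.56 (SE 0.10). With single libraries omitted the value ranged from 0.49 to 0.63. Its call was kept without dcKO_Nex-Cre replicate 4 and was lost without any other single library.

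*Gpr17* encodes a G protein-coupled receptor that marks precursors committed to differentiate. *Gpr17* (ENSMUSG00000052229, chromosome 18, minus strand) was at 22.3, 14.0, 19.0 and 25.6 CPM in the control libraries and at 31.2, 26.4, 24.6 and 18.9 CPM in the dcKO_Nex-Cre libraries. The groups overlapped widely, since dcKO_Nex-Cre replicate 4 lay below 3 of the controls. It had a log2 fold change of 0.33 (SE 0.19), from 20.2 ± 4.93 to 25.3 ± 5.06 CPM (SD, n = 4 per group), and it ranged from 0.20 without control replicate 2 to 0.46 without control replicate 4. Its exons share 188 bases with *Lims2* on the opposite strand, a gene with 62.6 counts per library on average against 559 for *Gpr17*.

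*Ptprz1* encodes a receptor tyrosine phosphatase of precursors, which radial glia also express at a high level. *Ptprz1* (ENSMUSG00000068748, chromosome 6, 22875502 to 23052916, plus strand) was at 787, 549, 742 and 756 CPM in the control libraries and at 792, 703, 839 and 505 CPM in the dcKO_Nex-Cre libraries. The highest and the lowest of the 8 values were both in the mutant. The means were 708 ± 108 and 709 ± 148 CPM (SD, n = 4 per group), and the log2 fold change of 0.0020 (SE 0.16) moved between -0.09 without control replicate 2 and 0.14 without dcKO_Nex-Cre replicate 4. *Ptprz1* alone made up 69.1% of the summed CPM of the 9 genes. The sum over all 9 was 992 ± 157 CPM in the control and 1061 ± 172 CPM in the mutant (SD, n = 4 per group). Summed without *Ptprz1*, the other 8 genes were at 315, 212, 293 and 314 CPM in the control libraries and at 380, 353, 358 and 314 CPM in the mutant.

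*Lhfpl3* encodes a membrane protein of the tetraspan LHFPL family that is widely used as a precursor marker in single-cell data. *Lhfpl3* (ENSMUSG00000106379, chromosome 5, 22746059 to 23275597, plus strand) was at 39.2, 23.6, 28.8 and 35.5 CPM in the control libraries and at 39.5, 30.1, 39.1 and 41.98 CPM in the dcKO_Nex-Cre libraries. It is the one gene whose highest value fell in dcKO_Nex-Cre replicate 4. The log2 fold change was 0.24 (SE 0.15), from 31.8 ± 6.96 to 37.7 ± 5.19 CPM (SD, n = 4 per group), with a range of 0.14 without control replicate 2 to 0.37 without control replicate 1. Without both libraries of high mitochondrial share it was 0.08, and within lane tag 2 it was 0.13. Its exons share 567 bases with the noncoding *A930003O13Rik* on the opposite strand, which had 22.8 counts per library on average against 828 for *Lhfpl3*.

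Among the transcription factors, *Olig1* and *Olig2* encode basic helix-loop-helix proteins and lie 41094 bases apart on chromosome 16, both on the plus strand. *Olig1* (ENSMUSG00000046160, 91269772 to 91271933) was at 89.1, 57.6, 80.2 and 80.6 CPM in the control libraries and at 89.5, 82.7, 91.4 and 75.8 CPM in the dcKO_Nex-Cre libraries. Apart from the low control replicate 2, its controls and mutants covered nearly the same range. Its log2 fold change was 0.14 (SE 0.12), from 76.8 ± 13.5 to 84.9 ± 7.08 CPM (SD, n = 4 per group). Without control replicate 2 it was 0.04.

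*Olig2*, which is needed for precursors to form at all, had a slightly larger difference than its neighbour. *Olig2* (ENSMUSG00000039830, chromosome 16, 91225457 to 91228677) was at 40.2, 27.9, 38.9 and 39.2 CPM in the control libraries and at 43.3, 46.6, 43.95 and 40.1 CPM in the dcKO_Nex-Cre libraries. Mutant replicates 1 to 3 lay above every control, and replicate 4 just under control replicate 1. The means were 36.5 ± 5.81 and 43.5 ± 2.65 CPM (SD, n = 4 per group), with a log2 fold change of 0.25 (SE 0.11) that was 0.15 without control replicate 2.

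*Sox10* encodes an HMG-box factor of the whole oligodendrocyte lineage that later acts on myelin genes, and it is also active in Schwann cells. *Sox10* (ENSMUSG00000033006, chromosome 15, 79154908 to 79165240, minus strand) was at 12.1, 9.80, 13.2 and 11.98 CPM in the control libraries and at 18.7, 15.6, 14.2 and 13.4 CPM in the dcKO_Nex-Cre libraries. The groups did not overlap, although the lowest mutant, at 13.36 CPM, was close to the highest control, at 13.23 CPM. A log2 fold change of 0.40 (SE 0.13) was fitted, from 11.8 ± 1.43 to 15.5 ± 2.34 CPM (SD, n = 4 per group), and it was 0.29 without dcKO_Nex-Cre replicate 1. *Cspg4* and *Sox10* were thus the 2 of the 9 genes whose mutant libraries all lay above the controls, which held for 3.99% of all genes tested, and 0 of the 9 lay wholly below, which held for 4.01%.

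*Nkx2-2* encodes a homeobox factor that comes on in precursors as they start to differentiate. *Nkx2-2* (ENSMUSG00000027434, chromosome 2, 147177546 to 147194243, minus strand) was at 1.42, 1.26, 1.001 and 1.498 CPM in the control libraries and at 1.16, 1.03, 1.57 and 1.07 CPM in the dcKO_Nex-Cre libraries. Its exons share 278 bases with *Nkx2-2os* on the opposite strand, which had 3.12 counts per library on average. The levels of *Nkx2-2* rest on 19 to 40 counts per library, and the spread within the groups, 16.9% and 20.4% of the mean, was close to the 18.4% that counting alone gives. The log2 fold change was -0.10 (SE 0.23), with an approximate 95% interval of -0.55 to 0.35. That interval did not reach the 0.42 fitted for *Pdgfra* or the 0.56 fitted for *Cspg4*, although these values have errors of their own. For the other 8 genes, counting alone gave 0.764% to 5.48% of the mean, below the spread between libraries of either group.

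**Figure D2:**
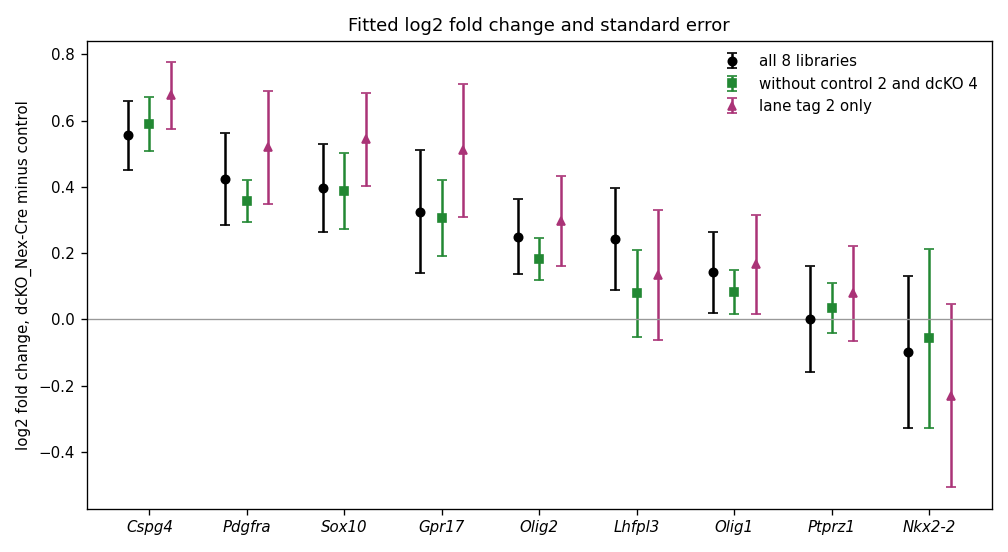
Log2 fold change of each precursor gene, mutant minus control (y axis), with a standard error (SE) derived from edgeR's test, fitted on all 8 libraries (black), without control replicate 2 and dcKO_Nex-Cre replicate 4 (green) and within lane tag 2 (purple). *Cspg4* is highest in all 3 fits, at 0.56, 0.59 and 0.68, and *Lhfpl3* drops from 0.24 to 0.08 and 0.13.

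*Cspg4* had the largest difference of the 9 genes in every fit that was run. Without control replicate 2 and dcKO_Nex-Cre replicate 4, the log2 fold changes were 0.59 for *Cspg4*, 0.39 for *Sox10*, 0.36 for *Pdgfra*, 0.31 for *Gpr17* and 0.18 for *Olig2*. *Cspg4*, *Pdgfra* and *Sox10* passed an adjusted p of 0.05 there, in a fit that called 5.49% of all genes tested higher and 5.50% lower. Without dcKO_Nex-Cre replicate 4 alone, *Cspg4* and *Sox10* passed, and 3.98% of all genes tested were called higher. Within lane tag 2, with 4 controls and 2 mutants, *Cspg4* passed, and 0.834% of all genes tested were called higher. The median log2 fold change of the 9 genes was 0.25 with all libraries, 0.18 without the pair and 0.30 within lane tag 2.

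Compared per length of their merged exons, the genes differed over a wide range, and the order of the means was the same in both groups except that *Gpr17* and *Sox10* changed places. In RPKM, which is CPM per kilobase of exon, control levels were 49.7 ± 7.58 for *Ptprz1*, 35.5 ± 6.24 for *Olig1* and 14.4 ± 2.30 for *Olig2* (SD, n = 4). A middle group held *Lhfpl3* at 9.88 ± 2.17 RPKM and *Pdgfra* at 8.69 ± 1.77 RPKM (SD, n = 4). *Gpr17* at 3.89 ± 0.948 RPKM and *Sox10* at 3.86 ± 0.470 RPKM followed, then *Cspg4* at 1.49 ± 0.0929 RPKM and *Nkx2-2* at 0.450 ± 0.0762 RPKM (SD, n = 4). The neighbours *Lhfpl3* and *Pdgfra* were not separated, as *Lhfpl3* was above *Pdgfra* in 5 of 8 libraries, nor were *Gpr17* and *Sox10*, where *Gpr17* was higher in 3 of 8. All other neighbours kept their order within each of the 8 libraries, although the control ranges of *Ptprz1* (38.5 to 55.2 RPKM) and *Olig1* (26.6 to 41.2 RPKM) overlapped across libraries.

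**Figure D3:**
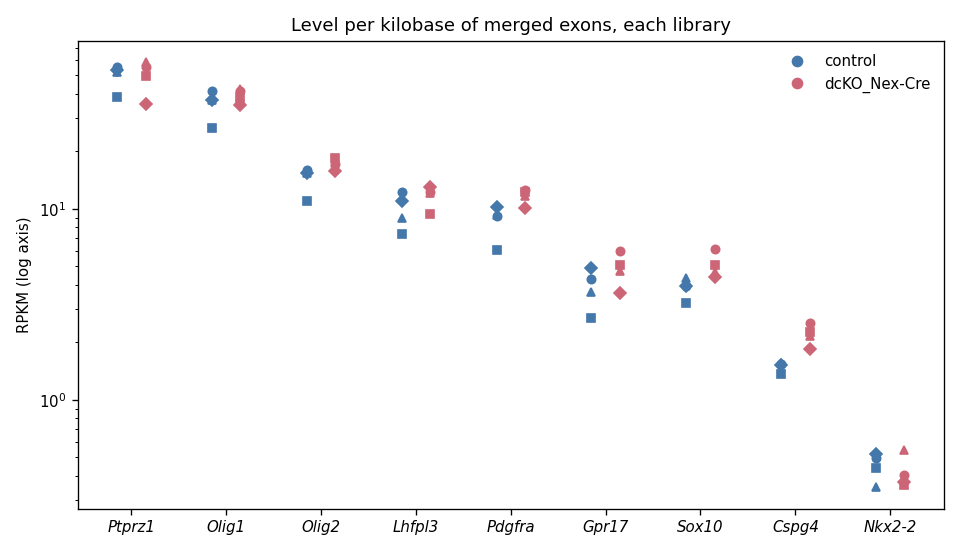
RPKM of each precursor gene per library on a log axis, control in blue and dcKO_Nex-Cre in red, with the replicate number given by the symbol and genes ordered by their control mean. Levels run from 49.7 RPKM for *Ptprz1* to 0.450 RPKM for *Nkx2-2* in the control.

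Control replicate 2 was the lowest control for 8 of the 9 genes, against 34.8% of all genes tested, and dcKO_Nex-Cre replicate 4 was the lowest mutant for 7 of the 9, against 37.8%. After each gene was centred on its own mean, the mean log2 level of the 9 genes was 0.03, -0.45, -0.11 and 0.03 in the control libraries and 0.26, 0.11, 0.20 and -0.07 in the mutant. These are the libraries with the highest mitochondrial shares, 6.87% and 6.15%, and the part of RNA quality in the low values was not tested. *Olig1* and *Olig2* followed the common profile most closely, with root mean square differences of 0.074 and 0.085 on the log2 scale. *Lhfpl3* and *Nkx2-2* followed it least, at 0.185 and 0.276.

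**Figure D4:**
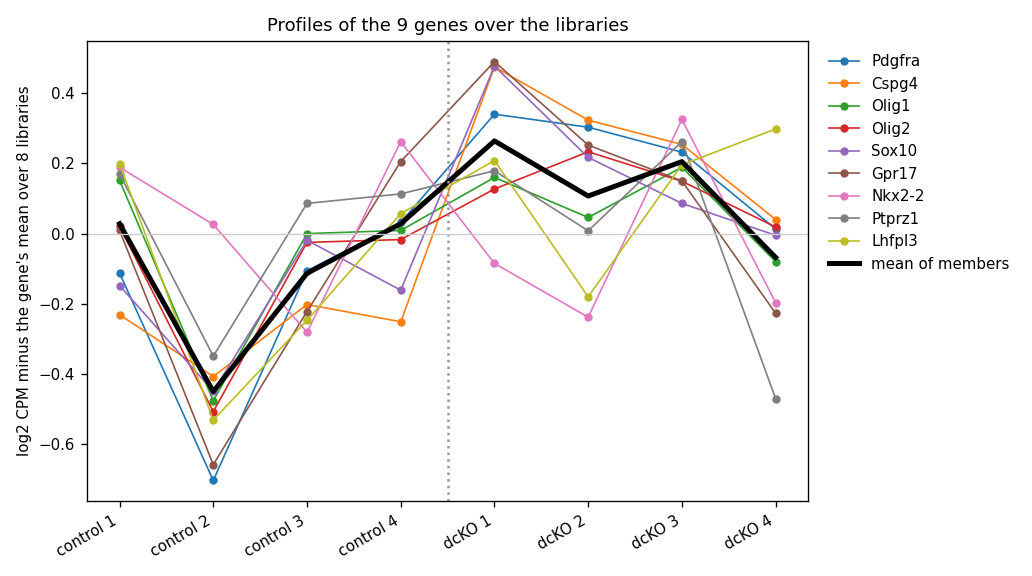
Log2 CPM of each precursor gene minus its own mean over the 8 libraries (y axis) by library (x axis), with the mean of the 9 genes in black. Lines only join the points of a gene, and the mean dips to -0.45 in control replicate 2 and to -0.07 in dcKO_Nex-Cre replicate 4, the lowest library of each group.

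Among the 12035 other genes with at least 100 counts on average, the 5 whose centred profile lay nearest to the mean profile of the 9 were *Vsir*, *Ccdc47*, *Lpcat1*, *Arfgap3* and *Fgfr2*. Their root mean square differences were 0.045, 0.052, 0.057, 0.058 and 0.059 on the log2 scale over 8 libraries, against a median of 0.236 for all these genes. *Fgfr2* encodes an FGF receptor and was at 39.1, 26.6, 36.3 and 37.3 CPM in the control libraries and at 43.7, 41.9, 47.2 and 35.2 CPM in the mutant. It was picked for a profile near the mean of the 9 genes, so its low values in control replicate 2 and dcKO_Nex-Cre replicate 4 follow from the choice.

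The RefSeq promoter table for GRCm38.p6 held 6 of the 9 genes, *Pdgfra*, *Cspg4*, *Olig2*, *Nkx2-2*, *Ptprz1* and *Lhfpl3*. A window of the 250 bases before each RefSeq start was used. The window of *Nkx2-2* (chr2:147186403-147186652) lay inside the gene extent given above, and those of *Cspg4* and *Olig2* ran into theirs. The windows were searched on both strands for the E-box CANNTG, the class of site bound by basic helix-loop-helix factors such as OLIG1 and OLIG2. It was found for *Pdgfra*, *Lhfpl3* and *Nkx2-2*, that is in 3 of 6, and in 66.2% of all 32851 promoters. The narrower E-box CATATG, which is itself a form of CANNTG, was found in none of the 6 and in 3.46% of all. The SOX motifs ACAAAG and ACAATG were found in 0 and 1 of the 6, the latter in *Olig2*, and in 16.5% and 10.7% of all promoters. The windows of *Pdgfra* (chr5:75152001-75152250), *Lhfpl3* (chr5:22745804-22746053) and *Ptprz1* (chr6:22875252-22875501), all on the plus strand, are shown to set genes with log2 fold changes of 0.42, 0.24 and 0.0020 side by side. E-boxes are in capitals.
Pdgfra: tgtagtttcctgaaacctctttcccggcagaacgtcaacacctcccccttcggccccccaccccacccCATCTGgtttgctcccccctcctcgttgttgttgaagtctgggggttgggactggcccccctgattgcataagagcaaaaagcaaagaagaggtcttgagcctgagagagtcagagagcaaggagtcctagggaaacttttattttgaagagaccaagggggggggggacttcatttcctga
Lhfpl3: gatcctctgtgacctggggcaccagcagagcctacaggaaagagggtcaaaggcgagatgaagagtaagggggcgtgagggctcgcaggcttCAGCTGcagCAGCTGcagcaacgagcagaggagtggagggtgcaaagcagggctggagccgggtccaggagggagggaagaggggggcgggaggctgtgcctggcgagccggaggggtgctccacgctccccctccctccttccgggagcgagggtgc
Ptprz1: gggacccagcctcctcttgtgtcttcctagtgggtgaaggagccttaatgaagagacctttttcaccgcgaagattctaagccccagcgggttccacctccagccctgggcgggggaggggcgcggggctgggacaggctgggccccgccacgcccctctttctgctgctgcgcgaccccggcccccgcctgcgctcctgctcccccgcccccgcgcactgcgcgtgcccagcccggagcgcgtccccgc
*Pdgfra* held 1 E-box, *Lhfpl3* held 2, which were both CAGCTG, and *Ptprz1* held none, with GC contents of 54.4%, 67.2% and 71.6%. A match describes these letters only, and no binding was measured.

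Other genes of the precursor stage were counted in a list of 21, of which 19 were tested. None passed an adjusted p of 0.05 in edgeR's quasi-likelihood test, 2 were higher and 0 lower at an unadjusted p under 0.05, which 13.6% of all genes tested reached, and DESeq2's Wald test called 2, *Vcan* and *Dll3*. Values above 0 were found for 17 of the 19, against 50.9% of all genes tested, with a median of 0.10. Without the pair of libraries of high mitochondrial share, edgeR called *Vcan* and *Dll3* higher, and 5.49% of all genes tested. *Vcan*, which encodes the proteoglycan versican, was at 222, 218, 207 and 221 CPM in the control libraries and at 269, 290.2, 289.9 and 260 CPM in the mutant, without overlap. Its log2 fold change was 0.35 (SE 0.07, adjusted p = 0.0503, edgeR). *Dll3*, a Notch pathway ligand of early progenitors, had a log2 fold change of 0.51 (SE 0.12, adjusted p = 0.0892, edgeR), also without overlap. Other abundant precursor genes had values near 0, such as *Bcan* (log2 fold change 0.02), *Luzp2* (-0.06) and *Cacng4* (0.02), which were named after their values were seen.

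The mitogens of precursors and their receptors did not pass the test with all libraries either. Of 14 genes, 0 were called by edgeR and 0 by DESeq2's Wald test, with 2 higher and 1 lower at an unadjusted p under 0.05. *Pdgfa*, the ligand of the *Pdgfra* product, was at 23.7, 20.03, 23.4 and 24.8 CPM in the control libraries and at 27.8, 21.5, 22.5 and 20.6 CPM in the mutant, a log2 fold change of 0.01 (adjusted p = 0.975, edgeR). *Pdgfc*, which encodes another ligand of the same receptor, had a log2 fold change of 0.36 (SE 0.12, adjusted p = 0.231, edgeR). *Erbb3*, a neuregulin receptor, had 0.45 (SE 0.24, adjusted p = 0.419, edgeR). The median log2 fold change of this list was 0.18, and 11 of its 14 genes were above 0, against 50.9% of all genes tested. Without the pair of libraries of high mitochondrial share, edgeR called *Igf1r* and *Fgfr2* higher. That fit called 5.49% of all genes tested higher.

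Genes for the ligands and partners of PTPRZ1 had a median close to 0, as *Ptprz1* had. Of 8 genes, 0 were called by either tool and 0 reached an unadjusted p under 0.05, and the median log2 fold change was -0.01. The adhesion genes *Cntn1* and *Nrcam* had the values farthest from 0, at -0.29 (SE 0.16, adjusted p = 0.446, edgeR) and -0.23 (SE 0.14, adjusted p = 0.483, edgeR).

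Genes of differentiating oligodendrocytes and myelin had values on both sides of 0, and the whole list summed to 274 to 306 CPM in the control and 281 to 368 CPM in the mutant. Of 24 genes, 20 were tested and 0 were called by edgeR or by DESeq2's Wald test, with 3 higher and 1 lower at an unadjusted p under 0.05. The median log2 fold change was 0.10, and 12 of the 20 were above 0, against 50.9% of all genes tested. *Mal* had a log2 fold change of 0.69 (SE 0.19, adjusted p = 0.139, edgeR) and *Mag* one of -0.50 (SE 0.25, adjusted p = 0.398, edgeR), both at about 1 to 3 CPM. *Mobp* and *Opalin*, myelin genes of mature cells, had too few counts to be tested. Without the pair of libraries of high mitochondrial share, edgeR called 3 genes of the list higher, *Tns3*, *Sirt2* and *Cnp*, and 1 lower. Of all genes tested, 5.49% were called higher and 5.50% lower there.

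Of 12 regulators of the lineage, *Id2* was the one gene called by edgeR with all libraries. *Id2*, an inhibitor of basic helix-loop-helix factors that holds back oligodendrocyte differentiation and is also active in cortical neurons, was at 437, 407, 458 and 386 CPM in the control libraries and at 249.9, 239.5, 258 and 353 CPM in the mutant. The groups did not overlap, and dcKO_Nex-Cre replicate 4 lay nearest to the controls. The log2 fold change was -0.62 (SE 0.12, adjusted p = 0.0457, edgeR), a call that was kept in 1 of 8 fits with 1 library omitted, the one without dcKO_Nex-Cre replicate 4. The median of the list was 0.03. Without the pair of libraries of high mitochondrial share, *Id2* was called lower and *Sox9* and *Nfia* higher. That fit called 5.49% of all genes tested higher and 5.50% lower.

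**Figure D5:**
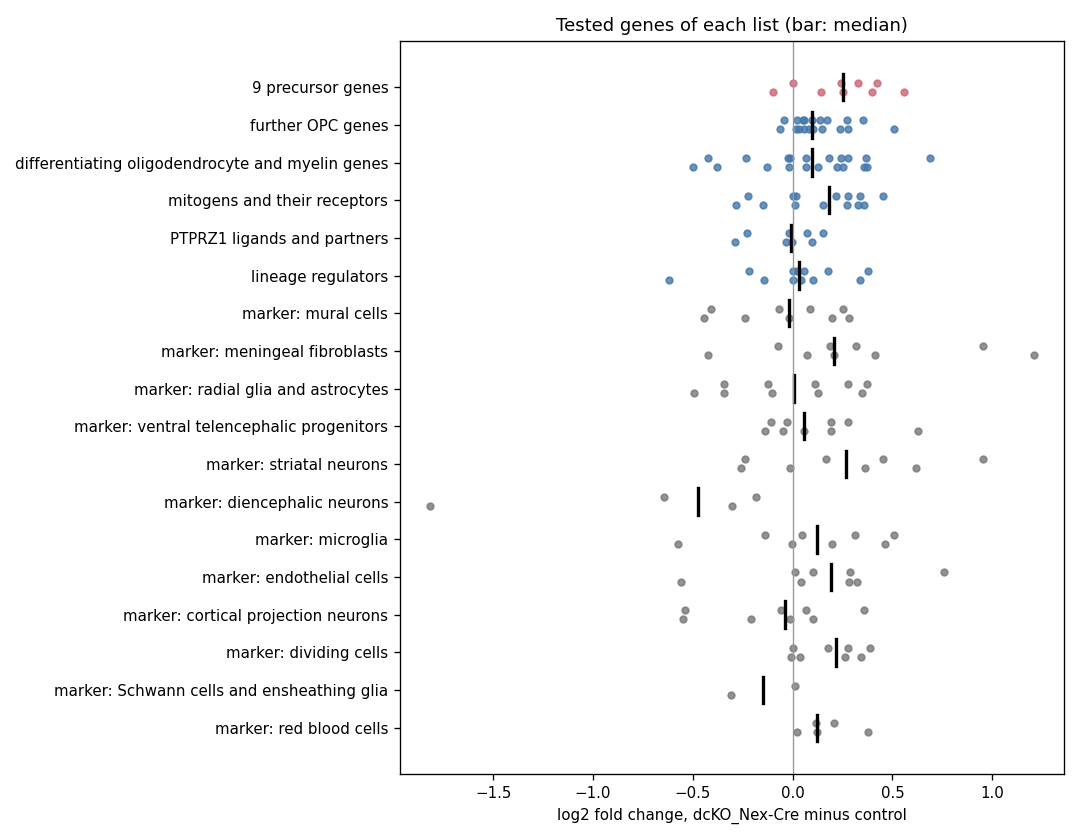
Log2 fold change, mutant minus control (x axis), of the tested genes in each list, one point per gene, with the median as a bar; the 9 precursor genes are in red, other lists of the lineage in blue and markers of other cell types in grey. The medians are 0.25 for the 9 genes, 0.10 for the further precursor genes and 0.18 for the mitogens and receptors. Those of the grey lists run from -0.47 for diencephalic neurons to 0.27 for striatal neurons, with 0.22 for dividing cells, 0.21 for meningeal fibroblasts and 0.19 for endothelial cells.

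Several of the 9 genes are also active in other cells of the cortex, and markers of those cells were summed in each library. Mural cells share *Cspg4*. Of 9 mural markers, 0 were called by edgeR, with 0 higher and 2 lower at an unadjusted p under 0.05, and DESeq2's Wald test called *Rgs5* lower. Their summed level was 195 to 268 CPM in the control and 201 to 223 CPM in the mutant, a range inside that of the controls. Much of it was *Rgs5* alone, at 112 to 152 CPM in the control and 90.8 to 115.5 CPM in the mutant. *Rgs5* and *Higd1b* had log2 fold changes of -0.41 and -0.44. By gene, 4 of the 9 were above 0, up to 0.28, and 5 below, with a median of -0.016.

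Meningeal fibroblasts share *Pdgfra*, and their 9 markers summed to 59.2 to 103.8 CPM in the control and 47.6 to 165 CPM in the mutant. Of the mutant libraries with the most *Pdgfra*, dcKO_Nex-Cre replicate 1 (126.3 CPM) had the lowest of these sums and dcKO_Nex-Cre replicate 2 (123.1 CPM) the highest. None of these markers was called by edgeR or DESeq2, and 0 reached an unadjusted p under 0.05. By gene, 7 of the 9 were above 0 and 2 below, where 50.9% of all genes tested were above 0. Their median log2 fold change was 0.21 with all libraries and 0.57 without the pair of libraries of high mitochondrial share.

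Radial glia and astrocytes share *Ptprz1* and, in part, *Olig1* and *Olig2*. Their 10 markers summed to 2630 to 3187 CPM in the control and 2393 to 3030 CPM in the mutant, with 0 called by edgeR, 2 higher and 2 lower at an unadjusted p under 0.05, and *Fabp7* and *Hopx* lower by DESeq2's Wald test. *Fabp7* had a log2 fold change of -0.50 (adjusted p = 0.114, edgeR) and *Aldoc* one of 0.38. Much of these sums was *Fabp7* alone, at 1427 to 1702 CPM in the control and 900 to 1349 CPM in the mutant. By gene, 5 of the 10 markers were above 0 and 5 below, with a median log2 fold change of 0.005. Ventral telencephalic progenitors, which also express *Olig1* and *Olig2*, had 9 markers at 298 to 406 CPM in the control and 272 to 423 CPM in the mutant, with 0 called by edgeR or DESeq2 and 0 at an unadjusted p under 0.05. *Isl1* was at 20.3 CPM in control replicate 2 and 35.3 CPM in dcKO_Nex-Cre replicate 2, against 3.25 to 5.65 CPM in the other libraries, and markers of striatal neurons summed to 304 CPM in dcKO_Nex-Cre replicate 2 against 89.0 to 149 CPM elsewhere. None of the 9 precursor genes was highest or lowest of all in dcKO_Nex-Cre replicate 2 except *Olig2*, at 46.6 CPM its highest.

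Schwann cells share *Sox10*, and of 6 markers of Schwann cells and ensheathing glia 2 were tested. All 6 together summed to 7.94 to 8.68 CPM in the control and 5.22 to 10.5 CPM in the mutant, *Pmp2* was at 0 counts in every library, and 0 were called by edgeR or DESeq2 or reached an unadjusted p under 0.05. Markers of dividing cells summed to 173 to 217 CPM in the control and 183 to 299 CPM in the mutant, with 0 of 8 called by edgeR or DESeq2 and 0 at an unadjusted p under 0.05. *Mki67* and *Top2a*, which mark cells in cycle, had log2 fold changes of 0.39 and 0.34, and of 0.21 and 0.19 without dcKO_Nex-Cre replicate 2. Of the 8 dividing-cell markers 7 were above 0, against 50.9% of all genes tested. Their median was 0.22, and 0.21 without the pair of libraries of high mitochondrial share. The part of these cell types in the levels of the 9 genes was not tested beyond these values.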

How the data were processed

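RNA-seq counts of P1 cortex were analysed for 4 control and 4 dcKO_Nex-Cre samples, the groups being taken from the sample titles (Control, Mutant) and the Nex-Cre line from the study's methods. The values the authors deposited are raw counts by Ensembl identifier, 1 table per library, neither normalized nor filtered. Libraries came from total RNA of whole tissue, prepared with Illumina's TruSeq kit. The submitters' processing notes name mm10; the aligner, the counter, the annotation and the use of strand are not given in the sources used here. Of 48709 genes, 48349 matched GENCODE M21 (GRCm38) by identifier, which gave symbols, positions and exon lengths.

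The analysis used edgeR 4.0.16 under R 4.3.3: filterByExpr with the groups (16287 genes kept), TMM, a robust two-sided quasi-likelihood test with no covariates, adjusted by Benjamini-Hochberg over all genes tested, threshold 0.05. The biological coefficient of variation was 0.143. The test gives no standard error, so each SE is the absolute log2 fold change divided by the square root of the F statistic. The approximate interval of *Nkx2-2* takes this SE as that of a normal distribution. RPKM are CPM per kilobase of merged exons. Centred profiles used log2 CPM with a prior count of 2. No pair of libraries of a group agreed within counting noise (chi-square per degree of freedom at least 3.77). Alternatives were DESeq2 size factors, the Wald test of DESeq2 1.42.0, no filter, at least 10 counts in every library, the replicate number as a block, lane tag 2 only, each library left out in turn and, chosen after seeing the data, both libraries of high mitochondrial share left out. Before use, on simulated counts modelled on these libraries the edgeR test was checked.

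The 9 genes and all lists were chosen with earlier results of these data known. Named genes were the 9, *Smarcc1* and *Smarcc2*, genes overlapping the 9, the 5 genes with the nearest profile, and from each list the genes past the threshold (at most 5, or 2 for marker lists), else the 2 with the largest absolute log2 fold change at 1 CPM or more. Other names were added after their values were seen. Some withheld items are not reported here. Summaries used pandas 2.3.3 (Python 3.11.15), and plots matplotlib 3.10.9.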

Additional observations from a re-analysis of the deposited data

Results flagged for a closer look

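Dixon's test was run on 140 groups of 4 values, and in 14 of them 1 library lay far from the other 3. The groups were the CPM of the named genes and the summed CPM of the lists, in each genotype. Library measures such as total counts and the mitochondrial share were included as well. Chance gives about 1 in 20, or 7 groups, and the groups are not independent of each other. Control replicate 2 was the library apart in 9 of the 14, dcKO_Nex-Cre replicate 2 in 3, and control replicate 3 and dcKO_Nex-Cre replicate 4 in 1 each. Counted for control replicate 2 are *Ccdc47* and *Arfgap3*, picked for profiles near the mean of the precursor genes. That mean is itself low in control replicate 2, so their low values there follow from the choice.

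In control replicate 2, *Olig2* was at 27.9 CPM, against 38.9 to 40.2 CPM in the other controls, and the summed CPM of the differentiating oligodendrocyte and myelin genes was 274, against 301 to 306. The endothelial markers summed to 110.4 CPM there against 156 to 163, and the ventral telencephalic markers to 406 CPM against 298 to 313. *Isl1* was at 20.3 CPM against 3.74 to 4.17, *Top2a* at 49.9 CPM against 74.6 to 79.1, *Ccdc47* at 77.9 CPM against 99.05 to 101.5, *Arfgap3* at 28.1 CPM against 36.9 to 37.8 and *Lims2* at 3.01 CPM against 2.51 to 2.59 in the other controls.

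In dcKO_Nex-Cre replicate 2, *Isl1* was at 35.3 CPM against 3.25 to 5.65 in the other mutants, *Ppp1r1b* at 88.3 CPM against 46.05 to 52.1, and the striatal markers summed to 304 CPM against 89.0 to 125. *Id2* was at 353 CPM in dcKO_Nex-Cre replicate 4 against 239.5 to 258 in the other mutants. *Barhl2* was at 3.13 CPM in control replicate 3 against 3.78 to 3.89 in the other controls.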

How the results depend on the processing

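The median log2 fold change of the 9 genes and of the 5 other lists of the lineage stayed within the spread between replicates under every alternative run, and that of the 9 genes ranged from 0.15 to 0.37 with single libraries omitted. Calls depended more on the libraries. edgeR called 144 genes with all libraries, 18 to 1278 with 1 library omitted (1278 without dcKO_Nex-Cre replicate 4, 87 without control replicate 2), 1794 without both libraries of high mitochondrial share, 248 within lane tag 2 and 259 without a filter, and DESeq2's Wald test called 494. Of the 9 genes, 1 was called with all libraries, 0 to 2 when each was left out and 3 without the pair. *Smarcc1* had log2 fold changes of -0.625 to -0.474 with each library left out, with the call lost in 6 of these 8 fits, and of -0.46 within lane tag 2 (adjusted p = 0.0752, edgeR). With the replicate number as a block, edgeR called 54 genes, 0 of the 9 precursor genes (1 reached it without the block), and *Smarcc1* was at -0.54 (adjusted p = 0.0578). The sample titles do not say whether samples with the same number are pairs. The deviations of samples with the same number correlated at 0.126, 0.018, 0.135 and -0.138, and 0 of the 4 controls correlated best with its own number. With 4 samples per group, these correlations cannot exclude a pairing. The cause of these differences between settings was not tested. Depth limits *Nkx2-2*, with 19 to 40 counts per library.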

Other observations

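The other genes were set against *Olig1* within each library, a comparison chosen after the values were seen. The log2 ratio of *Pdgfra* to *Olig1*, in CPM, was 0.05, 0.09, 0.21 and 0.34 in the control libraries and 0.50, 0.57, 0.36 and 0.41 in the dcKO_Nex-Cre libraries. Its mean was 0.29 higher in the mutant. The groups did not overlap in this ratio, whereas they did for *Pdgfra* itself and for each of the other ratios. The share of all genes whose ratio to *Olig1* separates the groups was not computed. For *Cspg4* the mean ratio was 0.39 higher, from a range of -2.28 to -1.83 in the control to one of -1.83 to -1.58 in the mutant, with control replicate 2 and dcKO_Nex-Cre replicate 3 meeting at the border. The mean ratio to *Olig1* was 0.23 higher in the mutant for *Sox10*, 0.18 for *Gpr17*, 0.11 for *Olig2* and 0.10 for *Lhfpl3*. For *Ptprz1* and *Nkx2-2* the mean ratio differed by -0.17 and -0.26, mutant minus control. These ratios come from the same contrast as the choice of the genes and are given as a description.

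Of 8 microglial markers, *C1qb*, which encodes a complement subunit, was called higher in the mutant (log2 fold change 0.46, adjusted p = 0.0422, edgeR), a call kept without dcKO_Nex-Cre replicate 4, lost without any other single library and lost within lane tag 2 (adjusted p = 0.0704, edgeR) and with the replicate block (adjusted p = 0.143, edgeR). *P2ry12*, a purinergic receptor gene of the same list, had a log2 fold change of -0.57 (adjusted p = 0.0596, edgeR) and lay lower in every mutant library than in any control. Unadjusted p-values under 0.05 were found for 3 markers that were higher and 1 that was lower, and DESeq2's Wald test called *C1qb* and *C1qc* higher and *P2ry12* lower. The list summed to 105 to 121 CPM in the control and 109 to 146 CPM in the mutant. Of 8 striatal markers, *Ppp1r1b* was called higher (log2 fold change 0.95, adjusted p = 0.0399, edgeR), with its highest value in dcKO_Nex-Cre replicate 2, without which it was 0.70, and a call that was lost without any single library other than dcKO_Nex-Cre replicate 2 or 4. It was also lost without both libraries of high mitochondrial share (adjusted p = 0.0974, edgeR), without the filter (adjusted p = 0.133, edgeR) and with the replicate block (adjusted p = 0.0539, edgeR). The endothelial list summed to 110.4 to 163 CPM in the control and 138 to 184 CPM in the mutant, the projection neuron list to 990 to 1071 and 881 to 1128 CPM, the diencephalic list to 21.3 to 22.9 and 9.99 to 21.8 CPM, and the red blood cell list to 82.6 to 138 and 81.8 to 185 CPM. In these 4 lists 0 genes were called by edgeR. At an unadjusted p under 0.05, 1 endothelial gene was higher, 1 projection neuron gene was higher and 2 were lower, 2 diencephalic genes were lower and 0 red blood cell genes reached it, and DESeq2's Wald test called 1 gene of the 4 lists, *Fezf2*, lower.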
